A study of Mus musculus with 27 samples.

Results

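Glutathione and antioxidant enzymes were described across prostate tumours of TRAMP mice as a list of 43 genes of the glutathione S-transferase, glutathione peroxidase, glutathione synthesis, superoxide dismutase, catalase, thioredoxin reductase and peroxiredoxin families, with Nqo1 and Hmox1. The genes were chosen by name, with earlier results of these data known, so comparisons with all genes are descriptive. A gene was measured when an array row carried its symbol and no other. That held for 38 of the 43, each with 1 row, out of 22180 genes with such a row. Gstm5, Gstz1 and Prdx1 stood only on rows shared with other symbols, and Prdx5 and Prdx6 were not named in the probe annotation used, so these 5 were not analysed here.

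Glutathione is a tripeptide made in a first step by glutamate-cysteine ligase, of which Gclc is the catalytic and Gclm the modifier subunit, and in a second step by glutathione synthetase, Gss. Transferases join it to electrophiles, peroxidases spend it on hydrogen peroxide and lipid peroxides, and glutathione reductase, Gsr, returns the oxidised form to the reduced one. Several of these enzymes are transcribed under the factor NRF2, encoded by Nfe2l2, which is held in the cytoplasm by Keap1 until oxidants or electrophiles release it, and silencing of the pi-class transferase by promoter methylation is a known feature of human prostate cancer.

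The samples were prostate tumours of 27 transgene-positive F2 males, bred from transgene-negative sires and transgene-positive dams from a cross of C57BL/6-Tg(TRAMP)8247Ng/J with PWK/PhJ. In TRAMP mice the probasin promoter, active in androgen-responsive prostate epithelium, drives the early region of the SV40 virus. Every animal carried the transgene, and tumour growth and spread were assessed at 30 weeks, or sooner where a humane endpoint came first. The age of each animal at collection, its genotype along the genome and samples of parental strains were not used here, so the tumours form 1 group with no control, and each tumour is 1 array of total RNA.

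Values are log2 levels from 1-colour arrays as the authors deposited them, with array medians between 5.67 and 5.82 and a median over all rows of 5.75. Arrays have no read depth, and the number of arrays is 1 of the limits on precision. Levels below that median are close to background, so a fold taken against them is given as a lower bound. The prostate gene Hoxb13 had a median level of 8.68 over the 27 tumours and was lowest in P471 at 4.47, and the epithelial gene Epcam lay between 7.72 and 11.53. These 2 genes do not stand for their lists. The mean of 12 luminal epithelial markers had a median of 6.82, with 18 tumours in a lower and 9 in an upper cluster. The mean of 11 androgen-dependent or secretory prostate markers, which include Hoxb13, had a median of 6.10. Neuroendocrine markers fell into separate clusters, with P966, P471, P425 and P1276 low and the other 23 tumours high. Because the tissue was bulk, fewer cells of a type and less RNA per cell cannot be told apart.

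P425 stood apart from the other tumours, and results that rest on it are given with and without it. Its median correlation with the other arrays was 0.887, the lowest of the 27, followed by 0.910 in P471 and 0.913 in P966. The mean of 8 adipose markers was 8.91 in P425, against a median of 5.85 over the 27 tumours, and the mean of 11 androgen-dependent or secretory prostate markers was 10.37 against a median of 6.10. Of 15 mitosis markers, 14 were lowest in P425. It held the highest value of 12 of the 38 members and the lowest of 3, against 10.996% and 11.506% of all genes.

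The members spread more widely between tumours than genes at large, in a comparison not matched for level. The median SD of the 38 members was 0.43 on the log2 scale, against 0.30 for all genes, and 28 members had an SD above that of the median gene. The highest tumour exceeded the lowest by more than 4-fold for 17 of 38 members, against 25.3% of all genes, and by more than 16-fold for 6 of 38, against 4.62%. Without P425 these counts were 16 of 38, against 22.4%, and 2 of 38, against 4.12%. The members were also higher in level, with a median mean of 6.87 against 6.38 for all genes. Among genes above the median level 11 of 29 members were over 4-fold, as were 3531 genes. That cut splits the 22180 genes evenly by level, so the gap between members and genes was smaller there than at all levels. Spread at matched level was not tested. The 6 over 16-fold were Gstk1, Gstt3, Cat, Gstm2, Gstt2 and Gsto1, of which Gstk1 and Gsto1 were still over 16-fold without P425. At the other end, Gpx4, Prdx4, Sod2 and Sod1 varied by less than 2-fold over all 27 tumours.

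**Figure D1:**
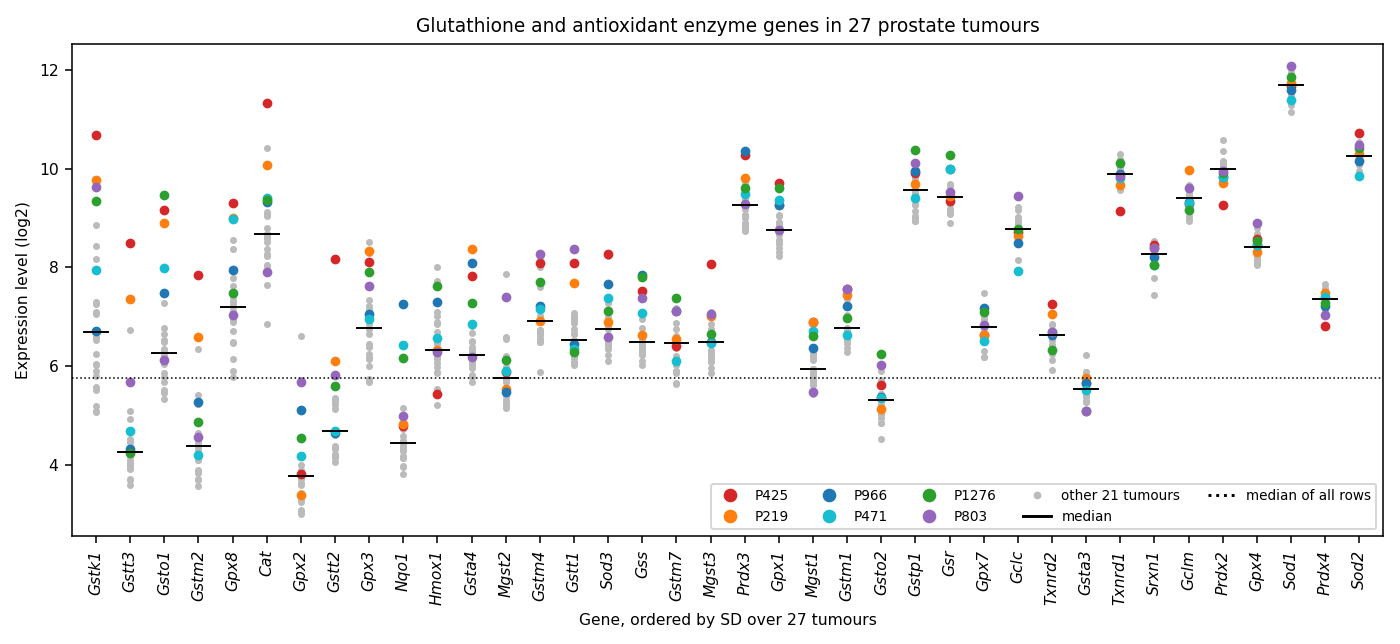
Log2 level (vertical axis) of each of the 38 measured members (horizontal axis, ordered by SD) in the 27 tumours, 1 point per tumour, with named tumours in colour, a bar at each gene's median and a dotted line at the median of all rows. Gstk1 runs from 5.06 to 10.67, while Sod1 stays between 11.16 and 12.07.

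Of the 6 members that varied over 16-fold, 5 were glutathione S-transferases, and others of that family varied less. By SD, the others ran from percentile 36.2 of all genes for Gsta3 to percentile 86.6 for Gsta4. Gstk1, the kappa-class transferase of mitochondria and peroxisomes, had a lowest level of 5.06 in P217, a median of 6.68 and a highest of 10.67 in P425, a difference of at least 49.0-fold (SD 1.55). The next highest tumours were P219 at 9.77, P803 at 9.63, P1276 at 9.35 and P1469 at 8.86. These levels ran on into those of the remaining tumours with no gap, and without P425 the range was still at least 26.3-fold.

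Of the theta-class transferases, which act on small halogenated and epoxide compounds, Gstt3 had a lowest level of 3.60 in P474, a median of 4.25 and a highest of 8.50 in P425. P219 followed at 7.36 and P502 at 6.73, and these 3 tumours formed a separate upper level above the other 24, which lay between 3.60 and 5.68. A separate level was called by fitting mixtures of normal distributions, with at least 3 tumours per level, and it was called for 3 of 38 members, Gstt3, Gsta4 and Nqo1, against 4.52% of all genes. Without P425 it was called for 1 of 38, Nqo1, against 4.02%.

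Gstt2 was high in P425 alone, at 8.17 against 6.10 in P219, the next tumour, and a median of 4.68. Gstt1 was highest in P803 at 8.38, followed by P425 at 8.08 and P219 at 7.68, over a median of 6.52. The 3 theta genes lie on chromosome 10 and were all above their median in P425, P219 and P803. Gstt2 and Gstt3 had the order P425, P219, P803 among these tumours, and Gstt1 had P803 first. Theta-class genes resemble one another in sequence, as do mu-class genes, so part of a probe's signal may come from a related transcript, which was not tested.

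Gsta4, the alpha-class transferase that conjugates the lipid peroxidation product 4-hydroxynonenal, stood at 8.37 in P219, 8.09 in P966, 7.83 in P425 and 7.28 in P1276, while the other 23 tumours lay between 5.67 and 6.85. The levels of these 4 tumours did not overlap the rest, by the choice of the split. Gsta3, a liver transferase of the same class, stayed between 5.09 and 6.21, around the median of all rows.

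Among the mu-class transferases, which detoxify aromatic electrophiles, Gstm2 had a lowest level of 3.56 in P503, a median of 4.38 and a highest of 7.84 in P425, followed by 6.59 in P219 and 6.34 in P502. The same 3 tumours were those of the upper Gstt3 level. Gstm4 was highest elsewhere, at 8.26 in P803 and 8.20 in P1469, with P425 at 8.09 and a lowest level of 5.87 in P217. Gstm1 and Gstm7 varied less, from 6.27 to 7.55 and from 5.63 to 7.37.

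Gsto1, the omega-class enzyme that reduces dehydroascorbate and methylated arsenic, had a lowest level of 5.34 in P1394, a median of 6.25 and a highest of 9.46 in P1276. P425 followed at 9.16, P219 at 8.90 and P471 at 7.98. Its relative Gsto2 was also highest in P1276, at 6.25, but stayed within an SD of 0.37. Gstp1, the pi-class transferase, lay between 8.93 in P1218 and 10.37 in P1276. Its SD of 0.36 was below the median SD of the members and above the 0.30 of all genes.

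Of the membrane-bound microsomal transferases, Mgst1 and Mgst3 were both highest in P425, and Mgst2 was highest in another tumour. Mgst2, which can make leukotriene C4, had its highest level of 7.86 in P1469 and its next of 7.40 in P803, over a median of 5.75. Mgst3 was highest in P425 at 8.07, with P311 next at 7.09. Mgst1 was highest in P425 at 6.90 and lowest in P609 at 5.43.

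Separate levels of a gene in F2 animals can come from alleles of the parental strains or from strain variants under a probe. Neither was tested, since genotypes and probe sequences were not used here.

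**Figure D2:**
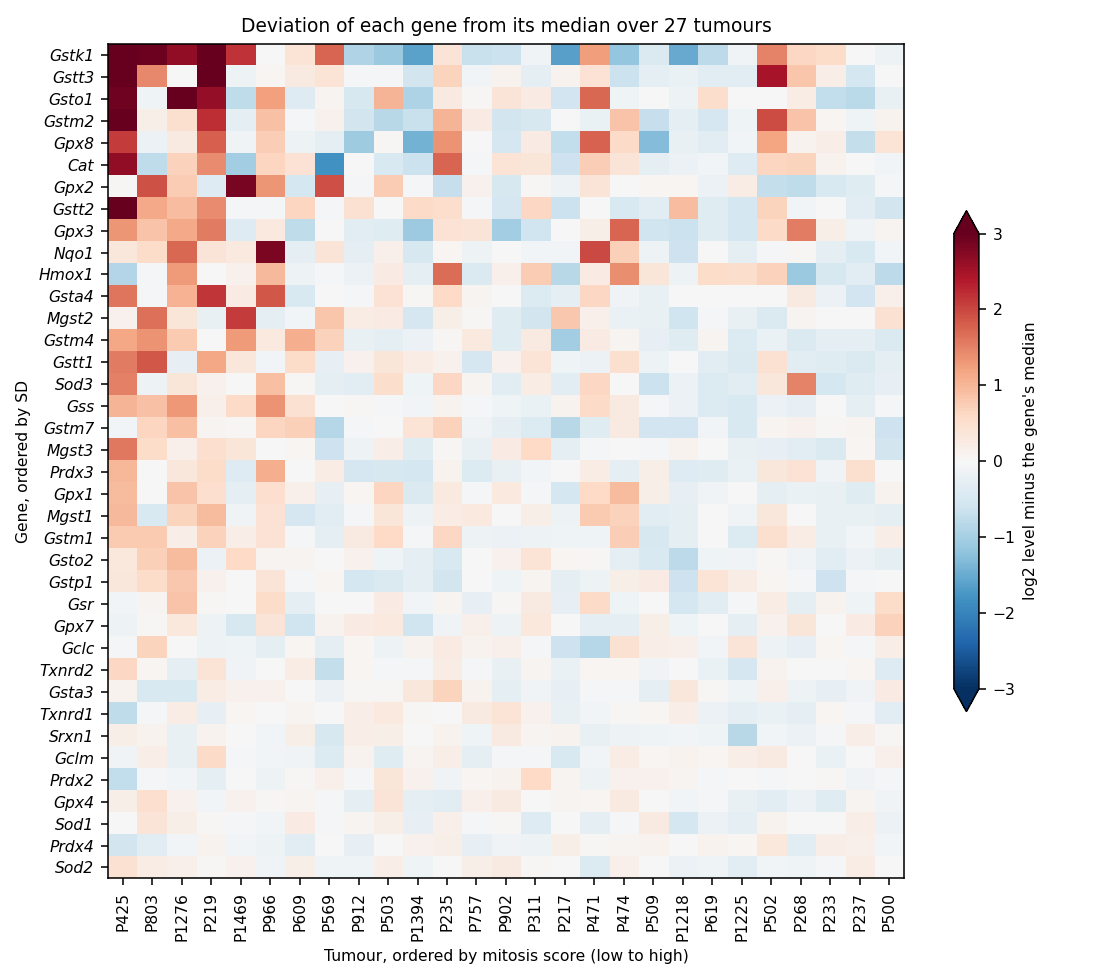
Deviation of each of the 38 members (rows) from its own median over the tumours, in log2 units on the colour scale, in each of the 27 tumours (columns, ordered by mitosis score from low to high). P425 and P219 are above the median for Gstk1, Gstt3, Gstm2 and Gsto1, and P966, P471 and P1276 for Nqo1.

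The glutathione peroxidases differed by gene. Gpx2, the epithelial peroxidase of the gut, had a lowest level of 3.003 in P268, a median of 3.78 and a highest of 6.61 in P1469, followed by 5.71 in P569, 5.68 in P803 and 5.11 in P966. P425 and P219 were not among these tumours, and all 4 belonged to the 9 tumours in the upper cluster of luminal epithelial markers. Gpx8, a peroxidase of the endoplasmic reticulum, had a lowest level of 5.78 in P1394, a median of 7.20 and a highest of 9.29 in P425, with 9.00 in P219, 8.97 in P471 and 8.54 in P235. Gpx3, the secreted plasma form, ran from 5.68 in P1394 to 8.52 in P474, with a median of 6.77.

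Gpx1, the widespread cytosolic form, lay between 8.23 and 9.70. Gpx4, which reduces phospholipid hydroperoxides and protects cells from ferroptosis, varied only from 8.05 to 8.90, and Gpx7 from 6.18 to 7.48. The peroxidases therefore ranged from an SD of 0.22 for Gpx4 to 0.90 for Gpx8.

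Catalase, the peroxisomal enzyme that splits hydrogen peroxide, had a lowest level of 6.85 in P569, a median of 8.67 and a highest of 11.33 in P425, which is a 22.3-fold range and 11.9-fold without P425. P235 followed at 10.42 and P219 at 10.08, while P1469 at 7.63 was the second lowest. P569 and P1469, the lowest for Cat, were the 2 highest for Gpx2.

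The superoxide dismutases and peroxiredoxins mostly varied little. Sod1, the cytosolic copper-zinc enzyme, lay between 11.16 and 12.07 and Sod2, the mitochondrial manganese enzyme, between 9.85 and 10.72. Sod3, which is secreted into the matrix, ran more widely from 6.10 to 8.27, with P425 at 8.27 and P268 at 8.23. Of the peroxiredoxins, thiol peroxidases that use thioredoxin, Prdx2 and Prdx4 had their lowest levels in P425, at 9.25 and 6.81, and Prdx3, the mitochondrial form, ran from 8.74 in P1394 to 10.36 in P966.

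The genes of glutathione synthesis and return, apart from Gss, had SDs near or below the median of 0.30 for all genes. Gclc lay between 7.93 in P471 and 9.44 in P803 (SD 0.31), Gclm between 8.94 and 9.96 (SD 0.23) and Gsr between 8.90 and 10.27 (SD 0.31). Gss was highest in P966 at 7.84 and P1276 at 7.79, followed by P425 at 7.52, and its lowest level was 6.03. Across the 27 tumours the 2 subunits of glutamate-cysteine ligase had a Pearson r of 0.45 and a Spearman rho of 0.51, with an adjusted p of 0.127 for r in a permutation test over 38 relations, which did not pass.

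Members known as NRF2 targets were Nqo1, Gclc, Gclm, Txnrd1, Srxn1, Hmox1 and Gsr. The antioxidant response element, which NRF2 binds with a small MAF protein, has the core TGACNNNGC, and the promoter windows of those with an entry are shown because they bear on whether the targets share that core near their start. Each window holds 250 bases before to 50 after the gene start, from RefSeq on GRCm38.p6, read 5′ to 3′ on the gene's strand with the first match of the core, on either strand, in capitals.
Nqo1 (chr8:107403156-107403455, minus strand): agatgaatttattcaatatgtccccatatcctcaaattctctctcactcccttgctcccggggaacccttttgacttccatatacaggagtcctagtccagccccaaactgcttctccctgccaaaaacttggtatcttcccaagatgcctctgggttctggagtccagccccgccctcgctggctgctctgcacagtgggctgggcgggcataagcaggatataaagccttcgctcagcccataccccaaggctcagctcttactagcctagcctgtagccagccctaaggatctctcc
Gclm (chr3:122245307-122245606, plus strand): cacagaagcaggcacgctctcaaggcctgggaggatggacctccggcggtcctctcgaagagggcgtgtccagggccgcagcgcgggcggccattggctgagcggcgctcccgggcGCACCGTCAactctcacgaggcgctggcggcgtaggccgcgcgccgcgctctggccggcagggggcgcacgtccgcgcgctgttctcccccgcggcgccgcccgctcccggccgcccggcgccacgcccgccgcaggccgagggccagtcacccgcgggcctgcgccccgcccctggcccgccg
Srxn1 (chr2:152105274-152105573, plus strand): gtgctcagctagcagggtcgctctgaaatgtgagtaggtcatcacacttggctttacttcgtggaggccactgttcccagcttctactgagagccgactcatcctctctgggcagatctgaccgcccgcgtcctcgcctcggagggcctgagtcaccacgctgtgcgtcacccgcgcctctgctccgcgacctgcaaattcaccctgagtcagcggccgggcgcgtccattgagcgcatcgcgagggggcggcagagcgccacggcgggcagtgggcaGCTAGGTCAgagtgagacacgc
Txnrd1 (chr10:82858956-82859255, plus strand, 1 of 3 starts): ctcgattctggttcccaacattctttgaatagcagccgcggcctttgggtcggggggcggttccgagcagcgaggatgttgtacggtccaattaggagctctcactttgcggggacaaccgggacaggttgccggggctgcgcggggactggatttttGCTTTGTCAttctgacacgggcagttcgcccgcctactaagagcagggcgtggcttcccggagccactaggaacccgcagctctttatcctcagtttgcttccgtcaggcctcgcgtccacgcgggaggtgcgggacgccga
Gclm, Srxn1 and this start of Txnrd1 each held 1 match, all on the opposite strand, and Nqo1 held none in the window. The other Txnrd1 windows, chr10:82833701-82834000 and chr10:82860091-82860390, held none, so the one shown is the one with a match. The core was found in 12.4% of 32851 mouse promoter windows and in 7 of the 43 windows of members, which cover 32 of the 38 measured genes. Srxn1 also held 2 matches of TGACTCA, a core bound by AP-1 and by NRF2 when it is part of a longer element, searched on both strands, which was present in 5.2% of windows and does not overlap the capitals. A match is a run of letters and not a binding site, and a window without a match says only that these letters are not in it.

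Nqo1, which reduces quinones, was the most variable of the 7 targets. It stood at 7.25 in P966, 6.42 in P471 and 6.16 in P1276, against 3.80 to 5.14 in the other 24 tumours, a range of at least 10.9-fold. These 3 tumours are among the 4 with low neuroendocrine markers, and the fourth of those, P425, had an Nqo1 level of 4.77. Hmox1, which degrades haem, followed another order, with 7.999 in P235, 7.71 in P474 and 7.61 in P1276, a median of 6.32 and 5.20 in P268. Txnrd1, the cytosolic thioredoxin reductase, and Srxn1, which repairs overoxidised peroxiredoxins, had SDs of only 0.24 and 0.23. Txnrd1 was lowest in P425 at 9.14 and Srxn1 in P1225 at 7.44.

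Nfe2l2 itself ran from 6.91 in P1225 through a median of 7.94 to 10.02 in P966, with 9.98 in P471, 9.10 in P1276 and 9.08 in P425. Its 4 highest tumours were thus the 4 with low neuroendocrine markers. Keap1 varied only from 7.23 to 8.11. Of 28 relations among the 7 targets and with Nfe2l2, 1 passed the permutation test after adjustment over 38 relations, which was Nfe2l2 with Gsr (r = 0.66, adjusted p = 0.0103, rho = 0.60, adjusted p = 0.0203, n = 27). Without P966 and P471, the 2 tumours farthest from the median of Nfe2l2, r was 0.52 with an adjusted p of 0.116, which did not pass. With any 1 tumour left out the relation passed, with a highest adjusted p of 0.0483 in the permutation test, without P471. Since Nqo1 fell into separate levels, no pooled r is given for it. Within the 24 tumours of its lower level, r with Nfe2l2 was 0.53 and rho 0.54, with an adjusted p of 0.102 for r.

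**Figure D3:**
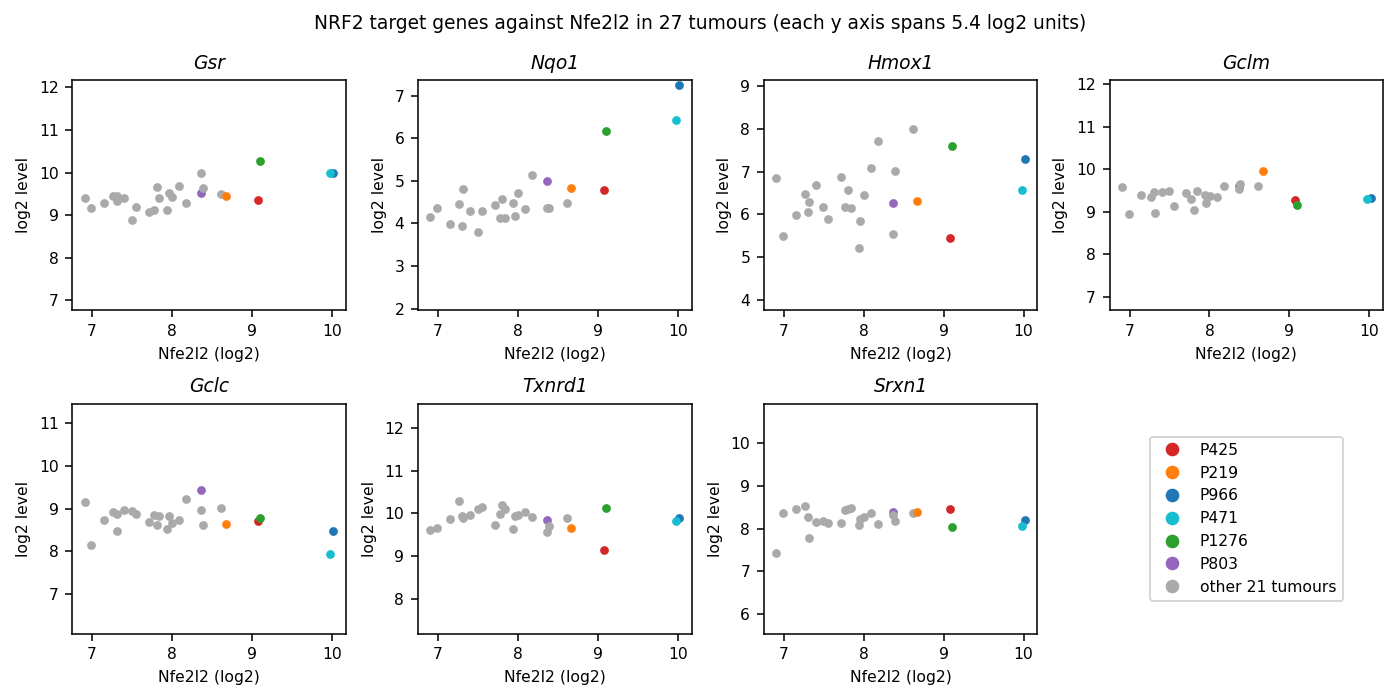
Log2 level of each of the 7 NRF2 target members (vertical axes) against that of Nfe2l2 (horizontal axes), 1 point per tumour, with named tumours in colour. P966, P471 and P1276 hold the upper level of Nqo1, and Gsr is the 1 target whose relation passed the test.

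Of 10 relations between neighbours within a family, 1 passed, Gstm1 with Gstm7 (r = 0.56, adjusted p = 0.0427, rho = 0.63, adjusted p = 0.0203, n = 27). These genes lie in 1 cluster on chromosome 3, and shared probe signal was not tested. Without P803 and P425, r was 0.57 with an adjusted p of 0.116 over 38 relations.

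To place the members against the make-up of the tumours, the level of every gene was fitted in limma on each of 8 marker scores, with Benjamini-Hochberg adjustment over all genes and a threshold of 0.05. A slope is the change in log2 level per SD of the score, with the SD taken over the tumours in that fit. Leaving out tumours changes that SD, so slopes from fits of different tumours are in different units. Their signs and calls can be compared, and their sizes cannot. The scores come from the same arrays and share tumours, P425 and P219 being highest on the androgen, adipose and smooth muscle scores, so the 8 fits are not independent of one another. In at least 1 of the 8 fits 26 of 38 members passed, against 40.6% of all genes, and without P425 22 of 38 did, against 33.3%. For fits that leave out another single tumour, counts of members are given without the share of all genes, so they describe the members only.

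On the mitosis score, 18 of 38 members fell, against 13.3% of all genes, and 2 of 38 rose, against 12.6%. Without P425, 10 of 38 fell, against 7.91%, and 0 rose, against 7.8%. The median slope was -0.19 over the members and -0.02 over all genes. Gstk1 had the steepest slope, -0.996 ± 0.225 (SE, adjusted p = 0.00168), and -0.74 without P425 (adjusted p = 0.0301). With and without P425, each per SD of its own fit, the slopes were -0.39 and -0.39 for Gstm4 and -0.32 and -0.34 for Gss. Gstt2 fell by 0.72 per SD of the fit with P425 and by 0.33 per SD of the fit without it, and passed both times. With P425 and P803 left out, which lay farthest from the median score, Gstk1 had a slope of -0.58 and did not pass (adjusted p = 0.0959). In that fit 7 of 38 members passed, and 2792 of 22165 genes did.

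Other falls on the mitosis score depended on P425. Gstt3, Gstm2 and Cat had slopes of -0.78, -0.60 and -0.41 with P425, and -0.25, -0.13 and 0.02 without it, where none of the 3 passed. The 2 members that rose, Prdx2 at 0.14 and Prdx4 at 0.12, did not pass without P425 either. The call held whichever single tumour was left out for 7 of the 20 members, which were Gsta4, Gstm4, Gstt1, Gstt2, Gstk1, Mgst3 and Gss. Of these, Gstk1, Gstt1 and Mgst3 did not pass without both P425 and P803.

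**Figure D4:**
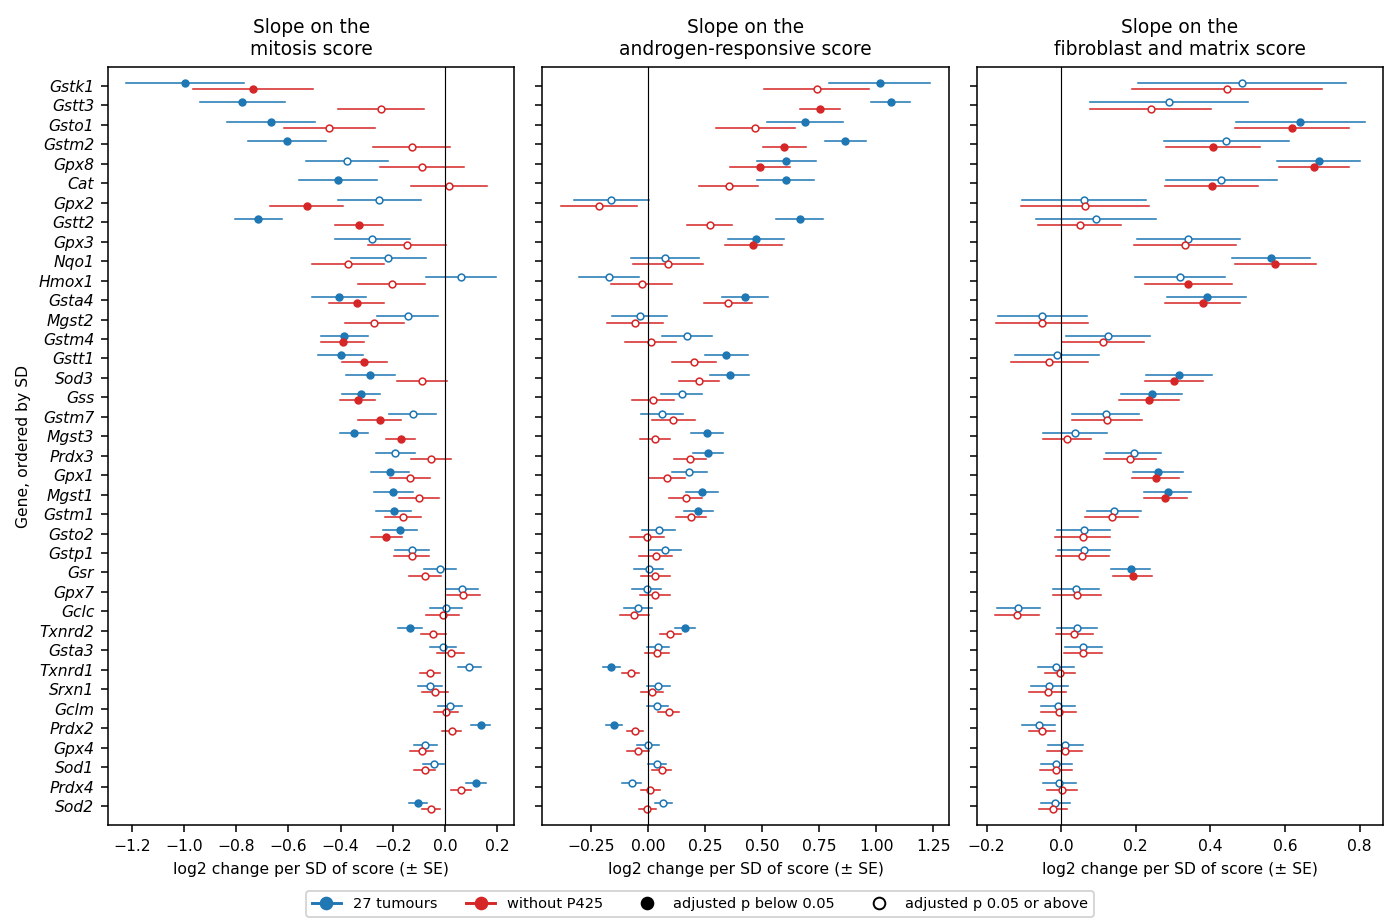
Slope ± SE of each of the 38 members (vertical axis, ordered by SD) on the mitosis, androgen and fibroblast scores, in log2 units per SD of the score (horizontal axes), with all 27 tumours in blue and without P425 in red; filled points have an adjusted p below 0.05 in limma. The Cat slope on mitosis is -0.41 with P425 and 0.02 without it, and that of Gstm4 is -0.39 both times. The SD of the score is that of the tumours in each fit, so sizes in blue and red are in different units.

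On the androgen and secretory score, 16 of 38 members rose, against 6.92% of all genes, and 2 fell, against 5.76%. Without P425, 4 of 38 rose, against 2.3%, and 0 fell, against 0.289%. The 4 were Gstt3, Gstm2, Gpx8 and Gpx3. Gstt3 had a slope of 1.06 ± 0.09 (SE, adjusted p = 5.83e-10) with P425 and 0.76 without it (adjusted p = 2.09e-06). Gstm2 had slopes of 0.86 with and 0.60 without P425. Without P425 and P219, 1 of 38 members passed, Gstt3, with a slope of 0.49, and 57 of 22169 genes did. The 2 members that fell with P425 were Txnrd1 at -0.16 and Prdx2 at -0.15.

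On the adipose score, 15 of 38 members rose, against 6.42% of all genes, and 2 fell, against 5.11%. Each of the 8 adipose markers was highest in P425, and without it 3 of 38 rose, against 1.79%, and 0 fell, against 0.153%. The 3 were Gpx8, Gstt3 and Cat, with slopes of 0.64, 0.53 and 0.48 without P425. Without both P425 and P219, Gpx8 was the only member that passed, at 0.55, and 74 of 22172 genes did. Gstt3 then had a slope of 0.23 (adjusted p = 0.665) and Cat one of 0.40 (adjusted p = 0.173). On the smooth muscle score, 12 of 38 rose, against 5.25%, and 0 fell, against 3.1%, and without P425 4 of 38 rose, against 1.89%, and 0 fell, against 0.0541%. Those 4 were Gstt3, Gstm2, Gpx8 and Gsta4. Leaving out P219 in place of P425 left 7 members, and leaving out both left 0, with 3 of 22171 genes. The part of fat, smooth muscle or residual gland in these slopes was not tested.

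The fibroblast and matrix score gave the calls that depended least on P425. With it, 9 of 38 members rose, against 8.21% of all genes, and 0 fell, against 5.95%. Without it, 12 of 38 rose, against 8.6%, and 0 fell, against 6.35%. The 9 were Gpx8, Gsto1, Nqo1, Gsta4, Sod3, Mgst1, Gpx1, Gss and Gsr, and each passed both times. Gpx8 had a slope of 0.69 ± 0.11 (SE, adjusted p = 0.000238) and Nqo1 one of 0.56 ± 0.10 (SE, adjusted p = 0.00102). The 2 tumours highest on this score were P471 and P966, which also hold the 2 highest levels of Nqo1. Without these 2 tumours 1 of 38 members passed, Gpx8 with a slope of 0.65, and 206 of 22168 genes did. Leaving out P966 alone left 5 members.

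On the macrophage score, 2 of 38 rose, Gpx8 and Mgst1, against 3.21% of all genes, and 0 fell, against 1.05%, which is a share near that of genes at large. Without P425, 6 of 38 rose, against 4.09%, and 0 fell, against 1.96%. On the hypoxia and glycolysis score, 2 of 38 rose, Nqo1 with a slope of 0.51 ± 0.11 (SE, adjusted p = 0.0124) and Gss with 0.28, against 2.9%, and 0 fell, against 1.29%. Without P425, 3 of 38 rose, against 5.14%, and 0 fell, against 3.83%, the third being Gpx2. Leaving out P966 or P1276 left 0 calls on that score, and leaving out P471, P803, P1469, P500, P502 or P268 left 1. On the macrophage score leaving out P471 left 0 calls, and leaving out P235 gave 5.

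Since 4 tumours formed a separate low cluster on the neuroendocrine score, that fit used the other 23. In it 0 of 38 members rose, against 0.00451% of all genes, and 0 fell, against 0%, while 9 of 38 members had an unadjusted p under 0.05, against 12.3% of all genes. The numbers were the same without P425, which was not among the 23. Over all fits of the 27 tumours, 12 members passed in none. Of these, Gpx2, Gstm7 and Hmox1 passed in a fit without P425, and the 9 that passed in none with or without it were Gclc, Gclm, Gpx4, Gpx7, Gsta3, Gstp1, Mgst2, Sod1 and Srxn1.

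Other genes of the pathway, comprising regulators, cystine import, NADPH supply, conjugate export and thioredoxin partners, were taken from a list of 47, of which 41 were measured. On the mitosis score 11 of 41 fell and 1 rose, against 13.3% and 12.6% of all genes, and without P425 8 fell and 1 rose, against 7.91% and 7.8%. On the androgen score 8 rose and 1 fell, against 6.92% and 5.76%, and without P425 1 rose and 0 fell, against 2.3% and 0.289%. On the adipose score 9 rose and 1 fell, against 6.42% and 5.11%. Without P425 0 passed in either direction, against 1.79% and 0.153%. On the smooth muscle score 5 rose and 1 fell, against 5.25% and 3.1%. Without P425 1 rose and 0 fell, against 1.89% and 0.0541%. On the fibroblast score 9 rose and 1 fell, against 8.21% and 5.95%, and without P425 10 rose and 1 fell, against 8.6% and 6.35%. On the macrophage score 2 rose and 0 fell, against 3.21% and 1.05%. Without P425 3 rose and 0 fell, against 4.09% and 1.96%. On the hypoxia score 2 rose and 0 fell, against 2.9% and 1.29%. Without P425 5 rose and 0 fell, against 5.14% and 3.83%. On the neuroendocrine score none passed, against 0.00451% rising and 0% falling. Nfe2l2 rose with the fibroblast score by 0.62 ± 0.10 (SE, adjusted p = 0.000247), with the macrophage score by 0.46 and with the adipose score by 0.42. Without P425 its slope on the adipose score, per SD of that fit, was 0.42 and did not pass (adjusted p = 0.1). Those on the fibroblast and macrophage scores, 0.62 and 0.48, passed. The widest of these genes were Txnip, an inhibitor of thioredoxin, from 8.37 to 11.89 in P425, and Abcc4, an exporter of conjugates, from 5.27 to 8.53 in P1276.

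For each member with separate levels and each of the 3 members of largest SD, the 3 genes of highest Pearson's r over the 27 tumours were taken as the most alike, as a description. Where a member fell into separate levels or clusters, r is given within the tumours of its larger level. For Gstt3 the genes were Cyp2f2 (0.64), Tmem238l (0.48) and Slc10a5 (0.47), within 24 tumours. For Nqo1 they were Slc38a4 (0.61), Slc19a3 (0.53) and Frem2 (0.48), within 24, and for Gsta4 Pbxip1 (0.75), Fmo5 (0.69) and Galm (0.46), within 23. For Gsto1 they were Smim3 (0.70), Met (0.60) and Tmco4 (0.58), within 23. For Gstk1, whose levels had no split, they were Vamp8 (0.90), Gne (0.88) and Srpr (0.88) over all 27, and 0.85, 0.82 and 0.83 without P425 and P219. The points share arrays and tumours, and P425 was the highest tumour for 11 of these 15 genes.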

How the data were processed

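Levels were the values of the authors' series table, on a log2 scale from the values themselves (1.68 to 14.5), deposited for 41345 rows and 27 tumours. Per the submitters' processing notes Partek was used; their normalization steps are not given in the sources used. Rows were named through the platform annotation, with 23521 rows of 1 symbol, 1814 of several and 16010 unnamed, and of several rows of a gene (1082 genes) the one with the highest mean was kept. The members and lists were chosen with earlier results of these data known. A score was the mean over a marker list of each gene's deviation from its mean. Slopes were fitted with limma 3.58.1 (lmFit and eBayes with trend) in R 4.3.3, leaving the score's own genes out, with Benjamini-Hochberg adjustment at 0.05. A separate level needed, in mclust 6.1.1 mixtures of up to 3 components, a BIC gain over 10, means at least 1 log2 unit apart, an Ashman D over 4 and 3 tumours per level. A looser rule (BIC gain over 6, D over 2, at least 3 tumours in the smaller cluster) set the clusters within which correlations and score fits were kept. The mitosis, androgen, adipose and smooth muscle scores met the limits for BIC gain and D. Their smaller part held fewer than 3 tumours, so they were not split and all 27 tumours were fitted. Correlations had two-sided tests with 100000 permutations in scipy 1.17.1, adjusted over 38 relations. The scripts were tested on simulated data. The labels state no technical replicates, so p-values measure the spread between tumours. Genes named in the text are all members, the 3 genes most alike for each member with separate levels and the 3 of largest SD, the 3 pathway genes of largest SD, Nfe2l2 and Keap1. Alternatives were quantile normalization, the row with the largest SD, genes above the median level, unequal variances, animal number as covariate, and leaving out tumours. Leaving out each tumour in turn was planned for the fits. Setting the fits without P425 beside the main ones was chosen after seeing the data. Leaving out P425 for spread and levels, and r within a level, were also added after seeing the data.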

Additional observations from a re-analysis of the deposited data

How the results depend on the processing

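The counts of called members changed most with which tumours entered. Leaving out each tumour in turn gave 10 to 22 members on the mitosis score (20 with all), 4 to 18 on the androgen score (18), 5 to 12 on the fibroblast score (9), 0 to 6 on the macrophage score (2), 0 to 3 on the hypoxia score (2), 3 to 18 on the adipose score (17), 4 to 15 on the smooth muscle score (12) and 0 to 0 on the neuroendocrine score (0). Leaving out P425 gave the lowest count on the mitosis, androgen, adipose and smooth muscle scores, and leaving out P219 gave 7 on the last. These ranges count members only, and for single tumours the share of all genes is given only for P425. Without the 2 tumours farthest on a score, 7 members passed on mitosis, with 2792 of all genes (5733 with all tumours). On androgen, fibroblast, macrophage and adipose 1 member each passed, with 57, 206, 309 and 74 genes (2809, 3139, 944 and 2558). On hypoxia and smooth muscle 0 members passed, with 19 and 3 genes (929 and 1851). Calls were thus lost over all genes and not only among the members. The median level splits the 22180 genes evenly. Among genes above it, 1 of 29 members passed on macrophage and 1 of 29 on hypoxia, with 508 and 887 genes. There 11 of 29 members and 3531 genes were over 4-fold, against 17 of 38 members and 5617 genes at all levels. Separate levels were called there for 1 of 29 members and 540 genes, against 3 of 38 and 1003. With the animal number as covariate, 4 members passed on macrophage and 1 on hypoxia, with 1096 and 362 of all genes. Separate levels were called for 5 of 38 members and 1035 of 22180 genes after quantile normalization. With unequal variances they were called for 1 member and 454 genes, against 3 and 1003 in the main setting. Leaving out P425 gave 1 member and 892 genes. Relations of NRF2 targets passed 1 to 2 times when 1 tumour was left out and 0 times without the 2 farthest. Those of family neighbours passed 0 to 2 times, 0 without the 2 farthest and 0 after quantile normalization, where Gstm1 with Gstm7 had an adjusted p of 0.106. Leaving out any of 17 tumours gave 0 for the neighbours. The Cat slope on mitosis ran from -0.459 to 0.015 over tumours left out in turn, positive only without P425, and the Mgst3 slope on androgen to -0.074 without the 2 farthest, against 0.26. Of the 80 called slopes, 77 held under quantile normalization and 77 with the animal number, and 80 with the row of the largest SD, but without the 2 farthest tumours only 9 held, 70 no longer passed and 1 reversed. The cause of these changes was not tested. No paired analysis was possible because the tumours form 1 group. Signal near background limits Gstt3, Gstm2, Gstt2, Gpx2 and Nqo1, whose lower tumours may be lower than measured.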
